A study of Mus musculus with 22 samples.

Results

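MTF2 peaks outside H3K27me3 are regions called for MTF2 in wild-type mouse embryonic stem cells that no H3K27me3 peak of the same cells overlaps by at least 1 bp. They were selected on 2 deposited peak lists, and 293 of the 6357 MTF2 peaks met the rule. The other 6064 MTF2 peaks overlapped H3K27me3 and are called inside peaks below, and the 293 are called outside peaks. The absence of H3K27me3 in wild-type cells is what chose them and is no result. Their widths, positions, sequences and overlaps with the other lists were not used in the choice, but they were called from the same cells.

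The study used chromatin immunoprecipitation and sequencing (ChIP-seq) in embryonic stem cells kept in serum with LIF, the cytokine that holds such cultures undifferentiated. The wild-type cells are the E14 line, with lists for MTF2, EZH2, H3K27me3 and H3K4me3. The comparison line is named Mtf2 GT/GT, and its genotype label names the Mtf coding sequence. It is read here as a line with a gene trap in the Mtf2 gene, and it has lists for EZH2, H3K27me3 and H3K4me3. Each list stands for 2 libraries of its group, so 14 of the 22 libraries of the series lie behind the 7 lists, and the other 8 were not analysed here. The lists hold positions without height or read count, so depth is unknown and neither spread between cultures nor any test between conditions can be given. Intervals below are 95% intervals for counting error over regions only, exact Clopper-Pearson for shares and from order statistics for medians. MTF2 itself was not analysed here in the gene-trap line, so its loss there is assumed from the line's name and genotype label only. That line's description text names E14 while its cell line label reads Mtf2 GT/GT, and a difference between the lines cannot be told apart from one of genotype. Nothing in the labels says that the 2 libraries of a group came from separate cultures, and the lists hold no expression values against which the cell type could be checked.

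MTF2 is a Polycomb-like subunit of some forms of Polycomb repressive complex 2 (PRC2). It binds unmethylated DNA rich in CpG through its extended homologous domain, and the series title states that it recognises the shape of the helix. EZH2 is the catalytic subunit that lays down H3K27me3, a mark of repressed developmental genes in stem cells, whereas H3K4me3 is placed at active and poised promoters by other enzymes. A site with MTF2 and without a called H3K27me3 domain is therefore a place where the DNA-binding subunit and the product of the complex were not called together.

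The 9 stretches printed next show the range of DNA found at outside peaks. Each is 200 bp around the centre of a peak, read on the plus strand of GRCm38, and capitals mark GCG or its complement CGC, the core of the MTF2 motif. The first 4 are the widest outside peaks of the 4 classes described below, namely those with EZH2 and H3K4me3 (chrX:43428400-43428599, in an intron of Tenm1), with EZH2 alone (chr8:123602292-123602491, in the array of 5S ribosomal RNA genes, within an intron of the annotated gene Gm20388), with H3K4me3 alone (chr17:6321355-6321554, intergenic and nearest to Dynlt1a) and with neither (chr6:47672806-47673005, intergenic and nearest to Ezh2). The fifth is at Slitrk4 (chrX:64275937-64276136), the gene farthest from any H3K27me3 peak. Tmem181a (chr17:6257001-6257200) and Fgfbp3 (chr19:36918677-36918876) are the widest promoter peaks with and without EZH2 whose centre touches no untranslated region. The last 2 have the lowest and the highest CpG density, in an intron of Gphn (chr12:78350881-78351080) and at Phf2 (chr13:48870414-48870613), with the same condition. These last 4 windows were added after the values were seen.
Tenm1 intron: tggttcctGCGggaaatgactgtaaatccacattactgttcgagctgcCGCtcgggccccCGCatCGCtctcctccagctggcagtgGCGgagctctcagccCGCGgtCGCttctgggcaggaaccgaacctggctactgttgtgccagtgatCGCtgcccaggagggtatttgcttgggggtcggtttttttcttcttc
5S array: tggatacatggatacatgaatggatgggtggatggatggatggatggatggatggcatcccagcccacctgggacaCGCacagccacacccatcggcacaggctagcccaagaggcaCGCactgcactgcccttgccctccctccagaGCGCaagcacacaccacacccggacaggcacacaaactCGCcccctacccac
near Dynlt1a: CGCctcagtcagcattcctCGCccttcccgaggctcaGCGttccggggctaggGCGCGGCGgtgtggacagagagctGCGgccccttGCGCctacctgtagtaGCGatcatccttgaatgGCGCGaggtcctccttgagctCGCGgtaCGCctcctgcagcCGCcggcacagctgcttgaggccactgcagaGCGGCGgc
near Ezh2: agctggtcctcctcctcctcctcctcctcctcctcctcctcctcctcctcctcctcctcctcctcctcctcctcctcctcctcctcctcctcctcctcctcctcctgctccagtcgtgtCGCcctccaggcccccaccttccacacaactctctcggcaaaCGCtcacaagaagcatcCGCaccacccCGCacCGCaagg
Slitrk4: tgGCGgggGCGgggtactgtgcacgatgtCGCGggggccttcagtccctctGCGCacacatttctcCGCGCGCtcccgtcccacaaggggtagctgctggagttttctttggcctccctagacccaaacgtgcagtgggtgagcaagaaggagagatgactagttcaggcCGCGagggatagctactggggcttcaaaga
Tmem181a: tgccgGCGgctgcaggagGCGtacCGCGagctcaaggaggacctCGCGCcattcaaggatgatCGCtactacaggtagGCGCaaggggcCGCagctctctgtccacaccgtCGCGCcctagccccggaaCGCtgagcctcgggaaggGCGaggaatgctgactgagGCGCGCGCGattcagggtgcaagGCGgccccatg
Fgfbp3: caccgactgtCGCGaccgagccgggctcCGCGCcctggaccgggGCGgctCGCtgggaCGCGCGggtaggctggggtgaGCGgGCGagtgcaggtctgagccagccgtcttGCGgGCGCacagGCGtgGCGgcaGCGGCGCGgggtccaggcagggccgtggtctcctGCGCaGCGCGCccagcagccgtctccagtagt
Gphn intron: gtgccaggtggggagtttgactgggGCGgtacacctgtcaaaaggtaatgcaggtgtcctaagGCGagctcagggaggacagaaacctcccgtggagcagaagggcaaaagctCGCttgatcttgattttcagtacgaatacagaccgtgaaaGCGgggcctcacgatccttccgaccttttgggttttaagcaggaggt
Phf2: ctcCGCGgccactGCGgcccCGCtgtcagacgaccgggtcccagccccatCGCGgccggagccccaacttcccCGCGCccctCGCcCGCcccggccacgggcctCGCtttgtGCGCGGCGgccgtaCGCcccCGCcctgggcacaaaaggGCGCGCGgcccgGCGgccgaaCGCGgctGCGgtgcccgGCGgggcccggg

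The windows held between 4 (Gphn intron) and 28 (Fgfbp3 and Phf2) matches to GCG, counted on both strands with overlaps. Over all 293 outside peaks, 292 central windows of 200 bp (99.7%) held at least 1, with a median of 16 and quartiles of 10 and 23. Inside peaks held one in 97.3% of windows, with a median of 11, H3K4me3 peaks without MTF2 in 84.6%, with a median of 4, and windows around protein-coding start sites in 80.7%, with a median of 6. GCG was thus present in most windows of each of these sets, from 80.7% to 99.7%, and the counts differ more than the shares. Windows drawn from the rest of the genome were not counted. The windows at Tmem181a and near Dynlt1a share 110 bp letter for letter on opposite strands, which is an example of the duplicated sequence taken up further on.

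Outside peaks were narrow. Their median width was 347 bp (315 to 371) and their range 184 to 3895 bp, beside a median of 899 bp (874 to 926) and a maximum of 19222 bp for inside peaks. Of the outside peaks 229 (78.2%) were narrower than 500 bp, against 26.6% of inside peaks. Because width may move with other features, the 1611 inside peaks narrower than 500 bp are given beside the rest as a second comparison, which was added after the values were seen.

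They also lay in CpG-dense sequence. The median was 6.8 CpG per 100 bp in the central 1 kb (6.5 to 7.4), 5.9 at inside peaks and 4.1 (4.0 to 4.2) at narrow inside peaks. The ratio of observed to expected CpG had medians of 0.75, 0.66 and 0.53 in the same order. The median of the outside peaks narrower than 500 bp alone was 6.5 CpG per 100 bp (6.1 to 7.2), so the difference from inside peaks of that width was present at equal width. A GC content above 50% with an observed to expected ratio above 0.6, as CpG islands have, was met by 208 of the 293 centres (71.0%), by 60.5% of inside peaks and by 33.3% of narrow inside peaks. In inside peaks the median was higher in wider bins, from 3.6 CpG per 100 bp below 250 bp to 4.2, 5.7 and 7.2 in the bins from 250, 500 and 1000 bp. Outside peaks gave 6.55, 6.5, 7.6 and 6.9 in the same bins, with no such order.

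**Figure D1:**
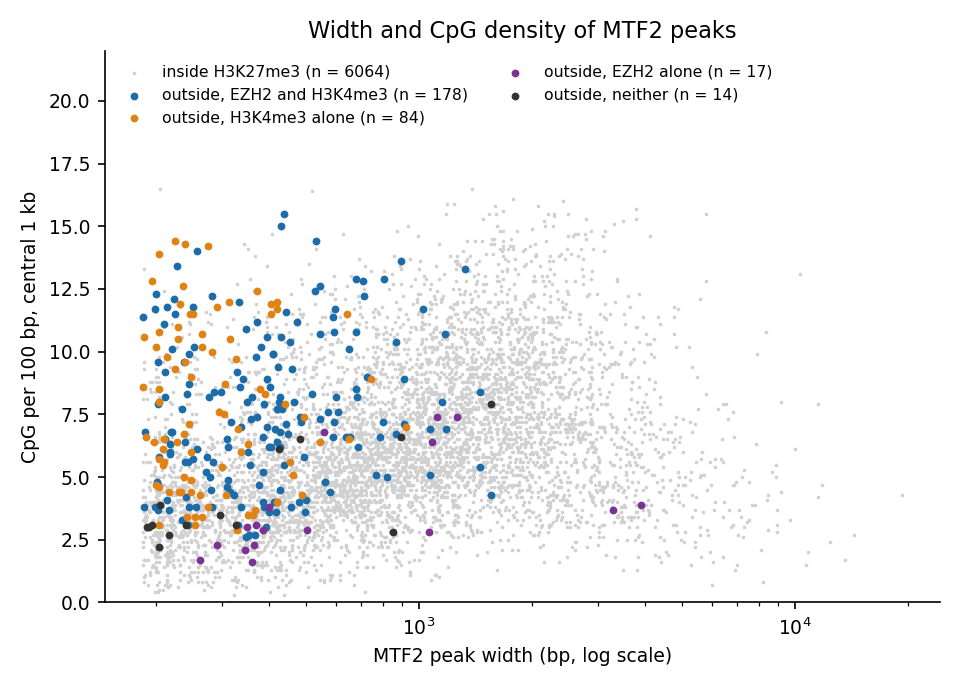
Width of each MTF2 peak (bp, log scale) against CpG per 100 bp in its central 1 kb. Grey points are the 6064 inside peaks and coloured points the 293 outside peaks by their overlap with wild-type EZH2 and H3K4me3. Outside peaks gather at the left, with a median width of 347 bp, and reach 15.5 CpG per 100 bp.

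EZH2 was called at 195 of the 293 outside peaks (66.6%, 60.8 to 71.9). Over all MTF2 peaks the share was 93.7%, over inside peaks 95.1% (94.5 to 95.6) and over narrow inside peaks 82.8% (80.9 to 84.6). The share was higher at wider peaks: EZH2 was called at 46.6% of the 88 outside peaks below 250 bp, 69.5% of the 141 from 250 to 500 bp, 85.1% of the 47 from 500 to 1000 bp and 16 of the 17 above (94.1%). Inside peaks gave 68.3%, 88.6%, 98.6% and 100% in the same bins, which were set after the values were seen.

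The EZH2 peaks at these sites were small. Their median width was 393 bp (372 to 425), beside 1155 bp (1129 to 1184) at inside peaks, and where EZH2 was called it covered a median of 91.5% of the MTF2 peak. In all 199 EZH2 peaks touched an outside MTF2 peak, and 3 of those reached into H3K27me3 elsewhere along their length. Seen from the enzyme, 424 of 7213 wild-type EZH2 peaks (5.88%) overlapped no H3K27me3, and 198 of those 424 (46.7%) overlapped an MTF2 peak.

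H3K4me3 was called at 262 of the 293 (89.4%, 85.3 to 92.7), close to 89.2% over all MTF2 peaks and above the 75.7% (73.6 to 77.8) of narrow inside peaks. The median MTF2 peak with the mark was covered by it over its full length. Its centre lay a median of 724 bp from the nearer edge of the H3K4me3 peak (670 to 800), and 616 bp at inside peaks. The H3K4me3 peaks had a median width of 2004 bp (1858 to 2178) counted once per MTF2 peak.

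By these 2 lists the outside peaks fell into 178 with both EZH2 and H3K4me3, 84 with H3K4me3 alone, 17 with EZH2 alone and 14 with neither. Neither was met by 4.78% (2.64 to 7.89) of outside peaks against a background of 1.31% of all MTF2 peaks. Narrow inside peaks gave 3.91% (3.02 to 4.98), an interval within that of the outside peaks, and outside peaks without a near-identical copy elsewhere gave 2.80%. Peaks with H3K4me3 alone made up 28.7% of outside, 3.81% of inside and 13.3% of narrow inside peaks. The 84 were narrower than the 178 with both, with a median of 254 bp (238 to 293) beside 388 bp (353 to 416). Their CpG density of 7.25 per 100 bp was close to the 7.2 of the class with both. The 17 with EZH2 alone and the 14 with neither had 3.0 and 3.1 CpG per 100 bp, and their intervals (2.3 to 3.9 and 2.8 to 6.5) start far lower.

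**Figure D2:**
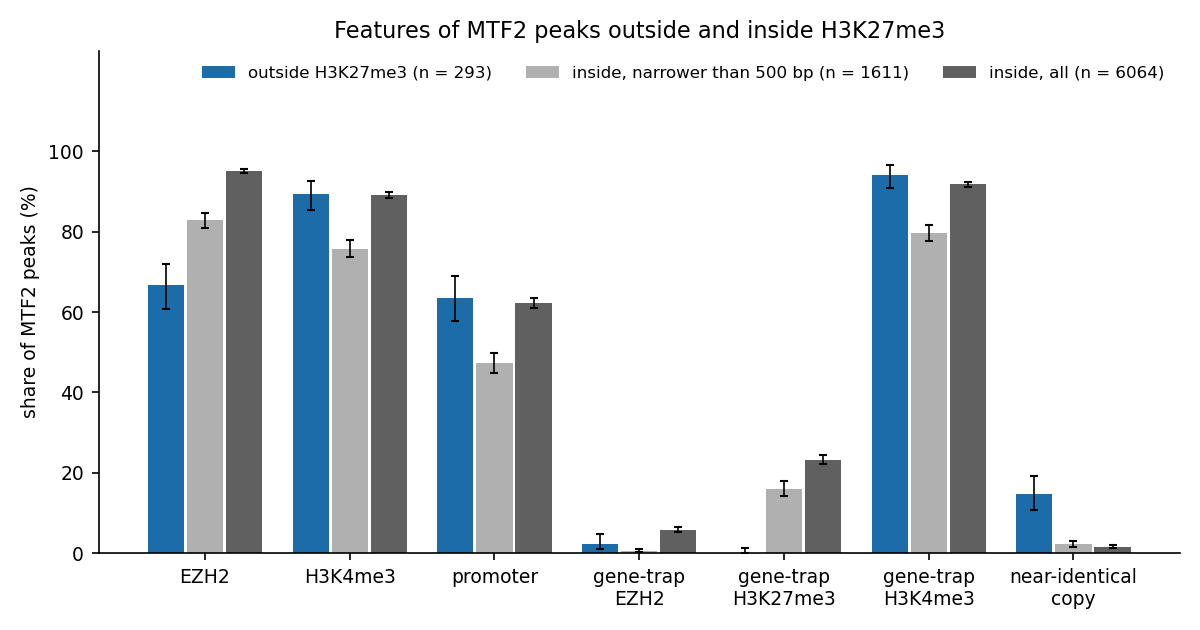
Share of MTF2 peaks (%) with each feature, for the 293 outside peaks (blue), the 1611 inside peaks narrower than 500 bp (light grey) and all 6064 inside peaks (dark grey). Error bars are exact 95% intervals for counting error over regions. EZH2 is lower at outside peaks (66.6%), gene-trap H3K27me3 is absent from them and near-identical copies elsewhere in the genome are more frequent (14.7%).

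Promoters of protein-coding genes, taken as 1 kb on either side of a start site in the GENCODE M21 basic set, were touched by 186 outside peaks (63.5%, 57.7 to 69.0). All MTF2 peaks gave 62.3% and narrow inside peaks 47.2% (44.8 to 49.7). Of the rest, 13 overlapped an exon, 27 lay in an intron and 67 were intergenic, and at 24 of these 107 the start of a non-coding gene or pseudogene lay within 1 kb. H3K4me3 was called at 181 of the 186 promoter peaks (97.3%) and at 75.7% of the others, and EZH2 at 121 (65.1%) and 69.2%. The same shares over promoter peaks of the whole MTF2 list are not given here, so these are not read as particular to outside peaks.

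At promoters the MTF2 peak tended to sit just inside the gene. The centre was downstream of the nearest start site at 153 of 186 (82.3%, 76.0 to 87.5), with a median offset of 224 bp (188 to 262). Inside peaks gave 76.6% (75.2 to 77.9) and 234 bp, and narrow inside peaks 70.2% (66.8 to 73.4) and 158 bp (132 to 181). Counted over all peaks rather than those at promoters, a start site lay within the peak itself at 63 of 293 outside peaks (21.5%), 42.6% of all MTF2 peaks, 43.7% of inside peaks and 13.7% of narrow inside peaks.

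**Figure D3:**
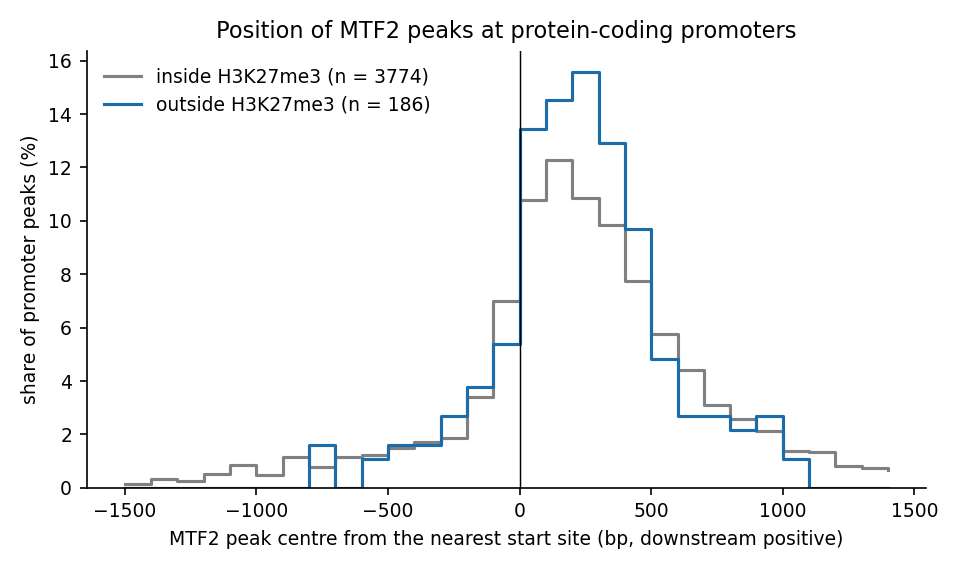
Distance of the MTF2 peak centre from the nearest protein-coding start site (bp, positive downstream of the start), as a share of promoter peaks (%) in bins of 100 bp, for 186 outside (blue) and 3774 inside (grey) peaks. Both distributions peak downstream of the start, with medians of 224 and 234 bp.

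These promoters belonged to 186 genes, which is 0.848% of the 21924 protein-coding genes, while any MTF2 peak was at the promoter of 15.9%. Of the 3484 genes with an MTF2 peak at the promoter, 5.34% had an outside peak. Among promoter peaks with both EZH2 and H3K4me3 the widest were at Nudt11, which encodes a diphosphoinositol polyphosphate phosphohydrolase, Tmem181a, a membrane protein gene, Slitrk4, a synapse-organising membrane protein, Dennd5b, an exchange factor for Rab GTPases, and Ntn1, which encodes the axon guidance cue netrin. Nudt11 had an MTF2 peak of 1323 bp with EZH2 of 1201 bp and H3K4me3 of 1496 bp. Slitrk4 had 1068 bp of MTF2, 1202 bp of EZH2 and 1508 bp of H3K4me3. Ntn1 had 912 bp, 1061 bp and a broad H3K4me3 peak of 4644 bp. At Nudt11, Slitrk4 and Ntn1 EZH2 was thus called over about as much DNA as MTF2. Dennd5b had 1026 bp of MTF2 and 769 bp of EZH2, and Tmem181a 1069 and 1139 bp.

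With H3K4me3 alone, the widest promoter peaks were at Fgfbp3, a binding protein for fibroblast growth factors (747 bp), Vim, the intermediate filament gene vimentin (651 bp), Slc35d1, a nucleotide sugar transporter of the endoplasmic reticulum (645 bp), Phka1, a regulatory subunit of phosphorylase kinase (545 bp), and Lpar1, a receptor for lysophosphatidic acid (494 bp). Their H3K4me3 peaks ran from 1431 bp at Phka1 to 4224 bp at Vim. Lif, which encodes the cytokine of the culture medium, was in the same class with 337 bp of MTF2 and 2111 bp of H3K4me3, and was picked out after its values were seen. With EZH2 alone there were 2 promoters, Gria3, which encodes a subunit of AMPA glutamate receptors (503 bp of MTF2, 394 bp of EZH2), and the predicted gene Gm8281. With neither there were 3, namely the window shared by Rtl4 and the cation channel gene Trpc5 (240 bp), the LIM-domain regulator Lmo3 (191 bp) and 2610042L04Rik (424 bp).

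Away from promoters the widest peak with both was in an intron of Tenm1, a teneurin that takes part in synapse formation (1549 bp at chrX:43427726-43429274, EZH2 966 bp, H3K4me3 1285 bp). The next were intergenic, at chr13:119965030-119966483 (1454 bp) and at chr6:47739607-47741057 (1451 bp). With EZH2 alone the 2 widest were in the 5S array on chromosome 8 (3895 and 3288 bp) and the third was intergenic near Pdia4 (1263 bp). With H3K4me3 alone they were intergenic, nearest to Dynlt1a (923 bp), Il13ra2 (420 bp) and Arl14ep (350 bp), and with neither they were intergenic nearest to Ezh2 (1553 bp), Samd9l (897 bp) and Pdia4 (854 bp). The genome sequence used masks 85.7% of the Il13ra2 peak and 98.3% of the Arl14ep peak as repeat. For the 2 peaks in the 5S array it masks 76.7% and 76.3%. A peak of 261 bp lay 1835 bp from H3K27me3 in an intergenic site nearest to Rasgrf1, an imprinted gene, with 547 bp of EZH2 and no H3K4me3 in either line, and was also picked out after its values were seen.

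The genes of 19 lists were counted beside these. The lists are not complete, so each count holds for the listed genes only. Of 78 Hox and other developmental homeobox genes, 77 had an MTF2 peak at the promoter and 0 had an outside peak. Other developmental regulators gave 64 and 1 of 74, the 1 being Hey1, a repressor downstream of Notch. Among 107 signalling genes 72 had MTF2, and 5 (4.67%) had an outside peak: Acvr2a, an activin receptor, Dkk3, of the Dickkopf family, Epha4, an ephrin receptor, Ntn1 and Ptch1, the receptor that inhibits Hedgehog signalling. Ptch1 carried 444 bp of MTF2, 562 bp of EZH2 and 7775 bp of H3K4me3 at 2916 bp from the nearest H3K27me3. The share of 4.67% stands beside 0.848% of all genes, but signalling genes had MTF2 more often than all genes did, and over the 72 with MTF2 the share was 6.94% beside 5.34%, near the background.

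Among the listed neuronal channel, receptor and synaptic genes 51 of 67 had MTF2 and 1 had an outside peak, Cacna1a, a subunit of a voltage-gated calcium channel (421 bp of MTF2, 383 bp of EZH2). Gria3, Trpc5 and Slitrk4, whose outside promoter peaks are given above, are not in that list. The count is therefore not read as a shortage of such genes. PRC1 components gave 12 and 1 of 30, Auts2. The count was 0 for 37 pluripotency factors, 14 genes of PRC2 and its partners, 31 factors of CpG islands and H3K4 methylation, 36 housekeeping genes, 49 genes of cell cycle, replication and repair, 30 germline genes, 30 imprinted genes, 61 of actin, adhesion and matrix, 82 ribosomal protein genes and 56 clustered protocadherins. The larger families gave 4 of 394 Zfp zinc finger genes (Zfp277, Zfp422, Zfp423 and Zfp664), 4 of 342 solute carriers (Slc27a2, Slc2a12, Slc33a1 and Slc9a7), 2 of 153 ubiquitin ligases (Rnf144b and Rnf182) and 1 of 67 histone genes (Hist3h2ba). Those shares are 1.02%, 1.17%, 1.31% and 1.49%, beside 0.848% of all genes. At that share fewer than 1 gene would fall in each list of this paragraph with a count of 0. Over genes with MTF2 the background was 5.34%, beside 0 of the 77 homeobox genes with MTF2. On that base other developmental regulators gave 1.56%, the listed neuronal genes 1.96% and PRC1 components 8.33% of 12. Zfp genes gave 12.5% of 32, solute carriers 5.13% of 78, ubiquitin ligases 8.33% of 24 and histone genes 33.3% of 3. Of the 186 genes, 19 were in any of the 19 lists.

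The listed genes with an outside peak differed in EZH2. Among the signalling genes Epha4 had 271 bp of MTF2 with 786 bp of EZH2, 963 bp from H3K27me3. Acvr2a (197 bp of MTF2) and Dkk3 (230 bp) had no EZH2 call, nor had Hey1 (315 bp), which lay 398 bp from a domain. Auts2 had 238 bp of MTF2 and 210 bp of EZH2 at 155 bp from a domain. Of the zinc finger genes, Zfp422 had 590 bp of MTF2 with 435 bp of EZH2, Zfp664 had 198 bp with 302 bp, and Zfp277 had 237 bp without EZH2. The peaks of Zfp664 and Zfp277 lay in promoter windows shared with Ccdc92 and Dock4, and overlapped the bodies of those other genes. The 4 listed solute carriers all had EZH2, from 213 bp at Slc2a12 to 706 bp at Slc27a2, a fatty acid transporter and acyl-CoA synthetase. Slc35d1, which that list lacks, had 645 bp of MTF2 without EZH2. Rnf182, Rnf144b and Hist3h2ba had EZH2 of 452, 487 and 251 bp. H3K4me3 was called at each of these genes in both lines.

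The X chromosome held 26 of the outside peaks (8.87%, 5.88 to 12.7) against 2.55% of all MTF2 peaks and 2.24% (1.88 to 2.65) of inside peaks. It held 1.83% of H3K27me3 peaks, 2.80% of H3K4me3 peaks and 4.32% of protein-coding genes. These counts were made after the values were seen. Of the 26, 17 were at promoters, 18 had EZH2 and 23 had H3K4me3, and their median distance from H3K27me3 was 375888 bp. Gpc3 and Gpc4, neighbouring genes for glypicans, were among them, with 2 outside peaks at Gpc3 (488 and 394 bp) and 1 of 387 bp at the Gpc4 promoter.

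The distance to the nearest H3K27me3 peak had a median of 97420 bp (75277 to 121960) and quartiles of 16265 and 246023 bp. In all 34 outside peaks lay within 1 kb of a domain, 31 between 1 and 10 kb and 228 farther away. At the edge of the rule, the nearest were at Grk3, a G protein-coupled receptor kinase (1 bp away), in an intergenic site nearest to Kdm8 (25 bp) and at Rel, an NF-kB subunit (45 bp). The inside peaks with the least H3K27me3 were at Lrrk2, a kinase (12 of 503 bp), Nova1, a splicing regulator (13 of 397 bp), and near Hivep1 (20 of 208 bp). H3K4me3 was called at all 6 of these, and EZH2 at Rel, Lrrk2 and the site near Hivep1. The farthest were the 2 peaks of Slitrk4 (3376690 and 3375516 bp) and that of Gria3 (2964493 bp), all on the X chromosome.

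**Figure D4:**
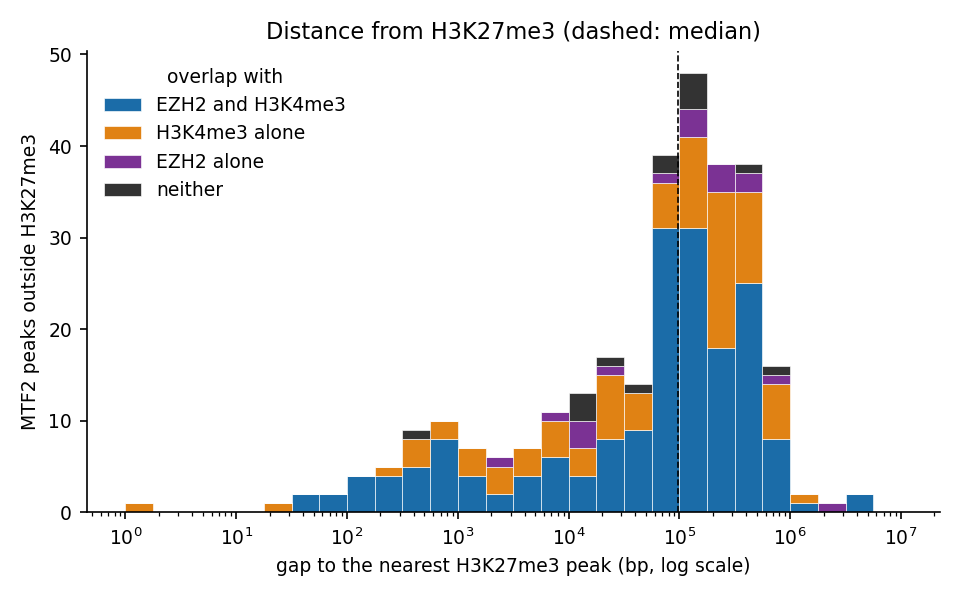
Number of outside MTF2 peaks by the gap to the nearest wild-type H3K27me3 peak (bp, log scale), stacked by overlap with EZH2 and H3K4me3, with the median of 97420 bp dashed. Most lie far from any domain, and a small group lies within 1 kb.

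The 34 within 1 kb were narrower than the 228 at 10 kb or more, with medians of 248 bp (220 to 284) and 368 bp (345 to 398), and lay in broader H3K4me3 peaks, with medians of 3171 bp (2505 to 4035) and 1862 bp (1691 to 2022). EZH2 was called at 73.5% (55.6 to 87.1) and 66.7% (60.1 to 72.8), intervals that overlap. Promoters of 22 genes had an outside and an inside MTF2 peak at once, among them Auts2, Hey1, Hipk2, Ntn1 and Zfp423. At Zfp423, a zinc finger regulator of cerebellar and fat development, 2 outside peaks of 282 and 248 bp lay 635 and 1324 bp from H3K27me3. The 62 domains nearest to the 65 outside peaks within 10 kb had a median width of 2102 bp beside 3631 bp for all 6294, and 35 of them (56.5%) held an MTF2 peak of their own, against 68.5%.

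In gene-trap cells 7 of the 293 outside peaks overlapped EZH2 (2.39%, 0.966 to 4.86), where all MTF2 peaks gave 5.63%. Counted over those with EZH2 in wild-type cells, 7 of 195 kept it (3.59%, 1.46 to 7.26) beside 6.01% of all MTF2 peaks and 0.750% (0.360 to 1.37) of narrow inside peaks. None of the 121 promoter peaks with EZH2 kept it, so Nudt11, Slitrk4, Ntn1 and Ptch1 had no EZH2 call in gene-trap cells. The same share over promoter peaks of the whole MTF2 list is not given here. Beside the 0.750% of narrow inside peaks at any position, the 0 is not read as particular to promoters. The gene-trap EZH2 list holds 840 peaks and the wild-type list 7213, and depth, threshold and binding cannot be told apart in such a difference.

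The 7 sites with gene-trap EZH2 lay in introns of Gphn, Jarid2, Kpna1 and Cdk8, in an exon of Lars2, which encodes the mitochondrial leucyl-tRNA synthetase, and in intergenic sites nearest to Igf2bp3 and Mc2r. Their CpG density was 1.6 to 4.8 per 100 bp, with gene-trap EZH2 widths of 173 to 402 bp. By wild-type overlap 4 of them belonged to the class with EZH2 alone, which spans 1.6 to 7.4 CpG per 100 bp. The other 3 belonged to the class with both, which spans 2.6 to 15.5. Of the 7, 6 shared with another of them a stretch of at least 100 bp at 95% identity or more. The Gphn site shared 187 bp with the Lars2 site at 97.9% identity and 168 bp with the site near Igf2bp3 at 99.4%, the Kpna1 site shared 167 bp with Lars2 at 97.6%, and the Jarid2 site shared 256 bp with that near Mc2r at 97.3%. Such sharing was not counted for the other outside peaks. The source of the shared sequence was not identified: no 28S ribosomal RNA sequence was used here, so a match to one was not tested, nor was the part of repeated sequence in the EZH2 calls.

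H3K27me3 in gene-trap cells was called at 0 of the 293, which allows a share of up to 1.02% by the limit of 3 counts and 1.25% as the upper bound of the exact interval, beside 22.1% of all MTF2 peaks and 16.0% (14.3 to 17.9) of narrow inside peaks. The outside peaks thus lacked a called domain in both lines. The first was the rule that chose them, and the second is not independent of it. Every inside peak overlaps a wild-type domain, and 697 of the 6294 wild-type domains (11.1%) overlapped gene-trap H3K27me3. The gene-trap list holds 963 regions beside those 6294, and how far the rule sets the 0 was not tested.

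H3K4me3 was present at 276 of the 293 in gene-trap cells (94.2%, 90.9 to 96.6), against 91.9% of all MTF2 peaks. Of the 262 with the mark in wild-type cells 260 kept it (99.2%, 97.3 to 99.9), against 98.8% of all marked MTF2 peaks. Over all wild-type H3K4me3 peaks 81.3% were kept. The 2 that lost the call were intergenic near Atg7, with wild-type H3K4me3 peaks of 465 and 404 bp, and had 58 and 57 near-identical copies elsewhere.

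Of the 31 outside peaks without H3K4me3 in wild-type cells, 16 had it in gene-trap cells (51.6%, 33.1 to 69.8), beside 34.9% of all MTF2 peaks without it and 25.1% (20.8 to 29.7) of narrow inside ones. The widest was at Gria3, with 0 bp in wild-type and 2582 bp in gene-trap cells and the nearest wild-type H3K4me3 peak 80154 bp away. Next were an intergenic site nearest to the phosphatase gene Dusp4 (2093 bp), one nearest to Gm3752 (1869 bp), the site nearest to Ezh2 (1501 bp) and the promoter window of Rtl4 and Trpc5 (1501 bp). Lmo3 went from 0 to 901 bp, and an intron of Dlg2, which encodes a postsynaptic scaffold, from 0 to 1085 bp. All 5 promoter peaks without H3K4me3 in wild-type cells were among the 16, so each of the 186 promoter peaks had the mark in gene-trap cells. That share over promoter peaks of the whole MTF2 list is not given here. The nearest wild-type H3K4me3 peak was 738 bp from the Rtl4 and Trpc5 window, so that difference rests on the overlap rule, while at Gm8281, 2610042L04Rik and Lmo3 it was 214648, 79747 and 280908 bp away. Of the 16, 8 had a near-identical copy elsewhere. Among these were the sites near Gm3752 and Ezh2 and the promoter peaks of Gm8281 (22 copies) and 2610042L04Rik (2 copies). For Gria3, Lmo3 and the Rtl4 and Trpc5 window no copy was found.

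Where H3K4me3 was called in both lines its width was similar. The median log2 ratio of width, gene trap over wild type, was -0.05 (-0.09 to -0.02) over the 260 outside peaks, which had 20 narrower by 1.5-fold or more and 6 wider. Counted once per H3K4me3 peak, 7.91% of 253 were narrower and 2.37% wider by that fold, beside 12.8% and 6.76% of all 22294 kept H3K4me3 peaks, whose median was -0.08. At other MTF2 peaks the shares lay the other way, with 4.07% of 4714 kept H3K4me3 peaks narrower and 7.87% wider and a median of 0.02 (0.01 to 0.03), beside -0.06 (-0.09 to -0.02) at outside peaks. Among the largest differences at promoters were those at 1700067K01Rik (4634 to 1095 bp) and Zfp422 (2933 to 1530 bp) in one direction, and at Vstm5 (1121 to 2246 bp), the glycine cleavage gene Gldc (2236 to 4338 bp) and the connexin gene Gja1 (4097 to 6408 bp) in the other. Broad peaks could stay broad, as at Lemd1 (16115 and 15204 bp) and Bahcc1 (15086 and 14968 bp), a pair chosen after their values were seen. Away from promoters the Tenm1 intron went from 1285 to 3573 bp. In the other direction, the intergenic site nearest to Sox1 went from 3656 to 1494 bp and that nearest to Polg from 3822 to 1691 bp. The sites near Sox1 and Polg were picked out after their values were seen.

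**Figure D5:**
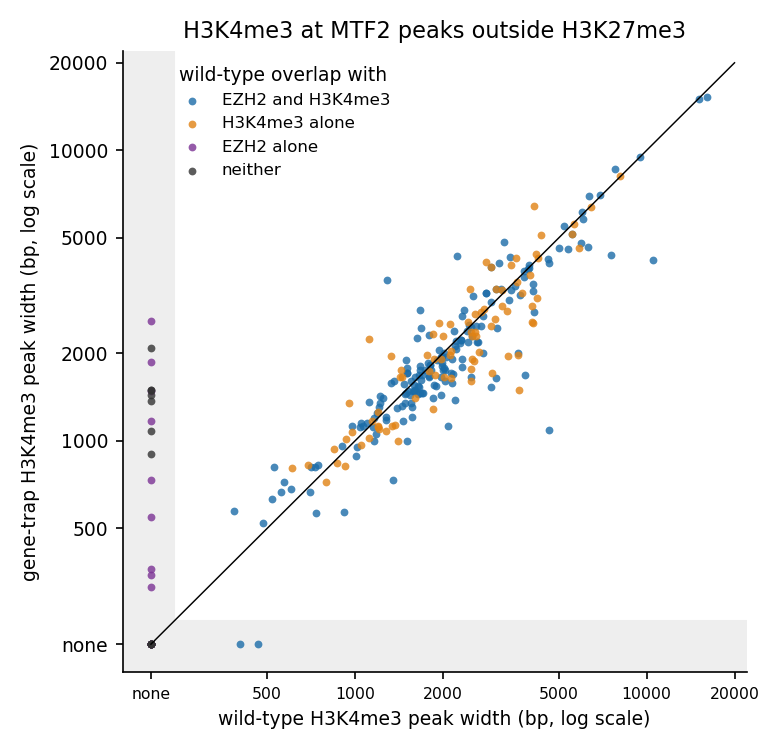
Width of the H3K4me3 peak at each outside MTF2 peak in wild-type (x) and gene-trap (y) cells, in bp on log scales, with equality as a line and peaks without a call in the grey bands. Points follow the line, 16 sites have the mark in gene-trap cells alone and 2 in wild-type cells alone.

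Near-identical sequence elsewhere in the genome was common among outside peaks. A copy of at least 95% identity over 80% of the peak was found for 43 of the 293 (14.7%, 10.8 to 19.3), against 2.20% of all MTF2 peaks and 1.60% (1.30 to 1.95) of inside peaks. These 43 were wider than the other 250, with medians of 558 bp (369 to 897) and 330 bp (298 to 358), and 12 of the 17 outside peaks of 1 kb or more were among them. The part of copies in these calls was not tested.

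Many of the copies lay in a few places, which were looked up after the values were seen. On chromosome 8, 2 peaks covered part of an array of 51 genes for 5S ribosomal RNA, with 45 and 48 copies each, EZH2 at both and no H3K4me3 in either line. On proximal chromosome 14, 12 outside peaks between 3049365 and 7659108 stood among predicted genes such as Gm3468 and Gm8281, 11 of them with a copy, 11 with EZH2, 9 with H3K4me3 in wild-type and 12 in gene-trap cells. On chromosome 6, 7 peaks between 47651491 and 47762808, in the interval that has Ezh2 and Pdia4 as its nearest genes, had 2 to 16 copies each, and 4 near Hrh1 and Atg7 had up to 60. The interval on chromosome 14 also held 13 inside peaks. There was 1 inside peak in the 5S array, 1 in the interval of Ezh2 and Pdia4 and 0 in that of Hrh1 and Atg7. The intergenic peak of 897 bp nearest to Samd9l matched the 18S ribosomal RNA pseudogene Rn18s-rs5 over 890 bp at 98.2% identity. The only other MTF2 peak with such a match was an inside peak over that pseudogene on chromosome 17.

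Without the 43, the 250 remaining outside peaks had H3K4me3 in 94.4% (90.8 to 96.9), EZH2 in 66.0% (59.8 to 71.9) and a promoter in 69.6% (63.5 to 75.2). All 236 of them with H3K4me3 kept it in gene-trap cells, and 7 of the 17 with EZH2 alone and 7 of the 14 with neither were left. The 43 themselves had H3K4me3 in 60.5% (44.4 to 75.0), EZH2 in 69.8% (53.9 to 82.8) and a promoter in 27.9% (15.3 to 43.7).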

How the data were processed

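ChIP-seq libraries were read in 75 bases, per the labels. CASAVA is named in the submitters' processing notes together with BWA (0.7.10-r789), MACS2 (2.7) and the build mm10 (GRCm38). Their roles, the thresholds, the control, the way libraries were combined and the handling of reads with several matches are not given in the sources used here, and normalization appears in list names only. The lists deposited by the authors hold a chromosome, start and end per region, starts counted from 0 and turned here into positions from 1, and no region passed a chromosome end. Overlap meant at least 1 bp, and a kept mark an overlapping gene-trap peak. Widths are those of the widest overlapping peak. Genes come from GENCODE M21 and sequences from RefSeq GRCm38. CpG was counted in the central 1 kb. Copies were sought with BLAST 2.17.0 at 95% identity over 80% of a peak. Sequence masked as repeat could not start a match. Interval code (Python 3.11.15) was checked against bedtools 2.31.1 on simulated regions.

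Members and lists were chosen with earlier results of these data known, and no p-value is given. Named were, per class, the 5 widest promoter peaks (passing over Gm and Rik genes) and 3 widest others, promoter genes in a list, the 3 nearest to and farthest from H3K27me3, the 3 inside peaks with the least of it, sites whose H3K4me3 call differed (the 5 widest), sites with gene-trap EZH2, and the 3 largest width ratios each way, of which 1 is not reported here. Printed windows avoid untranslated regions and chromosome 18. Of 638 listed symbols 2 were not found. Alternatives are in the closing section.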

Additional observations from a re-analysis of the deposited data

How the results depend on the processing

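No MTF2 height, depth or score was used, so a weak peak cannot be told from a strong one, and regions that a deeper H3K27me3 list would cover cannot be counted. No paired analysis was possible because each group has 1 list for its 2 libraries and no result comes from a test; for the same reason no library could be left out. Of 87 alternative values, 73 stayed within the stated interval or, for the number of outside peaks, within 1.5 times, 14 did not, and 0 reversed. That number was 259 with no H3K27me3 within 1 kb, 320 with H3K27me3 over less than 50% of the peak, 267 on autosomes and 250 without near-identical copies, beside 293.

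With MTF2 peaks of at least 500 bp only, 64 outside peaks were left, by construction wider (median 720 bp), with EZH2 at 87.5%, H3K4me3 at 82.8%, gene-trap H3K4me3 at 90.6%, H3K4me3 kept at 100% and a median distance of 123680 bp. A start site inside the peak, a narrower definition, gave 21.5% at promoters. Counting a peak within 1 kb, a looser one, gave EZH2 at 72.0%. With H3K4me3 peaks of at least 500 bp in both lists, 100% were kept. Without the outside peaks that have near-identical copies, an alternative chosen after seeing the data, promoters made up 69.6%, H3K4me3 94.4%, gene-trap H3K4me3 97.6% and kept H3K4me3 100%. Where construction does not give it, the cause was not tested.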
